A study of Mus musculus with 12 samples.

Results

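The transcripts of 8 antioxidant enzymes were followed in dermal fibroblasts of newborn mice: the superoxide dismutases Sod1, Sod2 and Sod3, catalase (Cat) and the peroxidases Gpx1, Gpx3, Gpx7 and Gpx8. All 8 were measured, among 17097 genes in all. They were listed because Sod3 differed widely between the Sca1+ populations, so the Sod3 levels in those populations, and every member's difference between them, are given as a description with no test. Fibroblasts were sorted from the skin of 3 female littermates aged 2 days, and each population was measured on 1 Affymetrix array per animal, 12 arrays in all. The populations were CD26+ upper papillary cells (negative for surface Dlk1 and Sca1), Dlk1- Sca1+ pre-adipogenic cells, Dlk1+ Sca1+ pre-adipogenic cells (both without CD26) and Dlk1+ reticular cells (without CD26 or Sca1). All were sorted as positive for Pdgfra and CD34 and negative for CD45, CD117, CD31 and EpCam, after the subdermis had been removed. The labels give no strain, transgene or treatment.

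Superoxide dismutases turn superoxide into hydrogen peroxide, and catalase and the peroxidases remove the peroxide. The enzymes differ in where they work. Sod1 and Gpx1 are mainly cytosolic, Sod2 lies in mitochondria and catalase in peroxisomes, Gpx7 and Gpx8 belong to the endoplasmic reticulum, and Sod3 and Gpx3 are secreted. Sod3 binds heparan sulfate in the matrix, so that in connective tissue it acts outside the cells that make it.

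RefSeq promoter windows matched 7 of the 8 members, all but Sod3. Those of 4 members are printed because their transcripts differed most among the 7 between populations or were highest in Dlk1- Sca1+ cells. Each is the 250 bases before the annotated start on GRCm38.p6, read 5′ to 3′ along the gene's strand. The window of Gpx3 is chr11:54902604-54902853 (+ strand), that of Sod2 chr17:13007589-13007838 (+ strand), that of Cat chr2:103485154-103485403 (- strand) and that of Gpx1 chr9:108338830-108339079 (+ strand). Capitals mark GC boxes (GGGCGG) and CCAAT boxes (CCAAT), on either strand.
Gpx3: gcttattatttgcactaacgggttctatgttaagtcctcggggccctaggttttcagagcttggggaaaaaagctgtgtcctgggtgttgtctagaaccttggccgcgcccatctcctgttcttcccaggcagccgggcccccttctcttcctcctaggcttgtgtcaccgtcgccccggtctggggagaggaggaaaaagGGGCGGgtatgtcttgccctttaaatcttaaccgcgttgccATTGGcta
Sod2: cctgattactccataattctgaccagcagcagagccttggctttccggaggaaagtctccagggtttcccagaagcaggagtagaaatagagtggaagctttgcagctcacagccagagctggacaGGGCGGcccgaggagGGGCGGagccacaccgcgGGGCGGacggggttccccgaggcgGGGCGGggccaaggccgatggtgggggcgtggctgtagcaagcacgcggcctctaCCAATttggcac
Cat: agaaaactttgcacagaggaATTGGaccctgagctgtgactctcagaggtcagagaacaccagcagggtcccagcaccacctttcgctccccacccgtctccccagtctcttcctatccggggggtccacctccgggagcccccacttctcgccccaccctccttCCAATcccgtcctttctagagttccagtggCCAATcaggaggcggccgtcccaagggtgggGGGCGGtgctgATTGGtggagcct
Gpx1: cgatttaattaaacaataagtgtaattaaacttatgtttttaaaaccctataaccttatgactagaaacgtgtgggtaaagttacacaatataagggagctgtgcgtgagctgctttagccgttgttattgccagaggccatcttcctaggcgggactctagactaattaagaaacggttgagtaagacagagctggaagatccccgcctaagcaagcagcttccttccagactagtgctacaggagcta
The Sod2 window held 4 GC boxes and 1 CCAAT box, the Cat window 1 GC box and 4 CCAAT boxes, and the Gpx3 window 1 of each. The Gpx1 window held no match to either. Of 32851 promoter windows of this length, 32.7% held a GC box and 33.9% a CCAAT box. An antioxidant response element, searched as TGACNNNGC on both strands, was matched in the Sod1 window alone among the 7, 56 bases before the start, and in 10.2% of all windows. A TATA box (TATAAA) was also matched in the Sod1 window alone, and in 12.4% of all windows, and an E-box (CACGTG) in none of the 7 and in 6.02% of all. These matches describe letters in a window and not binding.

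Values are log2 expression values made by the authors with RMA, which normalizes arrays to each other, so a difference of 1 is a doubling. Array medians lay between 6.21 and 6.34, and the number of arrays limits the precision. Levels of different genes are not compared, since probe sets differ in how strongly they bind. Differences are the mean of the population named first minus that of the second, with the standard error (SE) of a limma model over all 12 arrays. Calls need an adjusted p below 0.05 in limma, with Benjamini-Hochberg adjustment over all genes of the comparison. The 9 fibroblast markers, such as Col1a1 and Dcn, had mean levels of 11.70 to 11.76 over the papillary arrays, 11.48 to 11.60 over the Dlk1- Sca1+ arrays, 11.45 to 11.56 over the Dlk1+ Sca1+ arrays and 11.41 to 11.46 over the reticular arrays. Some keratinocyte markers were not low, such as Krt5, from 8.18 to 12.10 over the 12 arrays. Others were low, such as Lor, from 4.80 to 5.36. Epcam, a gene sorted against, was as high as 8.62 in animal 1's Dlk1- Sca1+ array. The Dlk1 transcript was at 9.97 in papillary, 11.39 in Dlk1- Sca1+, 12.86 in Dlk1+ Sca1+ and 12.97 in reticular cells. In such bulk samples fewer cells of a type and less RNA per cell cannot be told apart.

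Sod3, the secreted dismutase, was high in the populations sorted as Dlk1+ and low in those sorted without Dlk1. In papillary cells of animals 1, 2 and 3 it was at 4.95, 5.06 and 4.92. Dlk1- Sca1+ cells gave 5.70, 5.18 and 5.09, against 8.94, 8.48 and 8.59 for Dlk1+ Sca1+ cells. Reticular cells gave 8.27, 8.14 and 7.98. Every array of a Dlk1+ population thus lay above every array of the others, with none between 5.70 and 7.98. The order of means was Dlk1+ Sca1+ (8.67 ± 0.24, SD, n = 3), reticular (8.13 ± 0.15), Dlk1- Sca1+ (5.32 ± 0.33) and papillary (4.98 ± 0.07). Each Dlk1+ Sca1+ array lay above each reticular one, with a difference of means of 0.54 ± 0.16 (SE). Each Dlk1- Sca1+ array lay above each papillary one by a small margin, 5.09 against 5.06 at the closest.

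Between the Sca1+ populations the Sod3 difference, Dlk1- Sca1+ minus Dlk1+ Sca1+, was -3.35 ± 0.16, a 10.2-fold lower level. Against reticular cells it was -2.81 ± 0.16 in Dlk1- Sca1+ cells. Papillary cells differed from Dlk1+ Sca1+ cells by -3.69 ± 0.16 and from Dlk1- Sca1+ cells by -0.35 ± 0.16. The comparison that uses neither Sca1+ population could be tested. In papillary against reticular cells Sod3 fell by 3.15 ± 0.16 on the log2 scale, an 8.90-fold lower level (adjusted p = 9.91e-09, limma). It was lower in 3 of 3 animals, and the call held in each of 15 fits without 1 animal or 1 array.

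**Figure D1:**
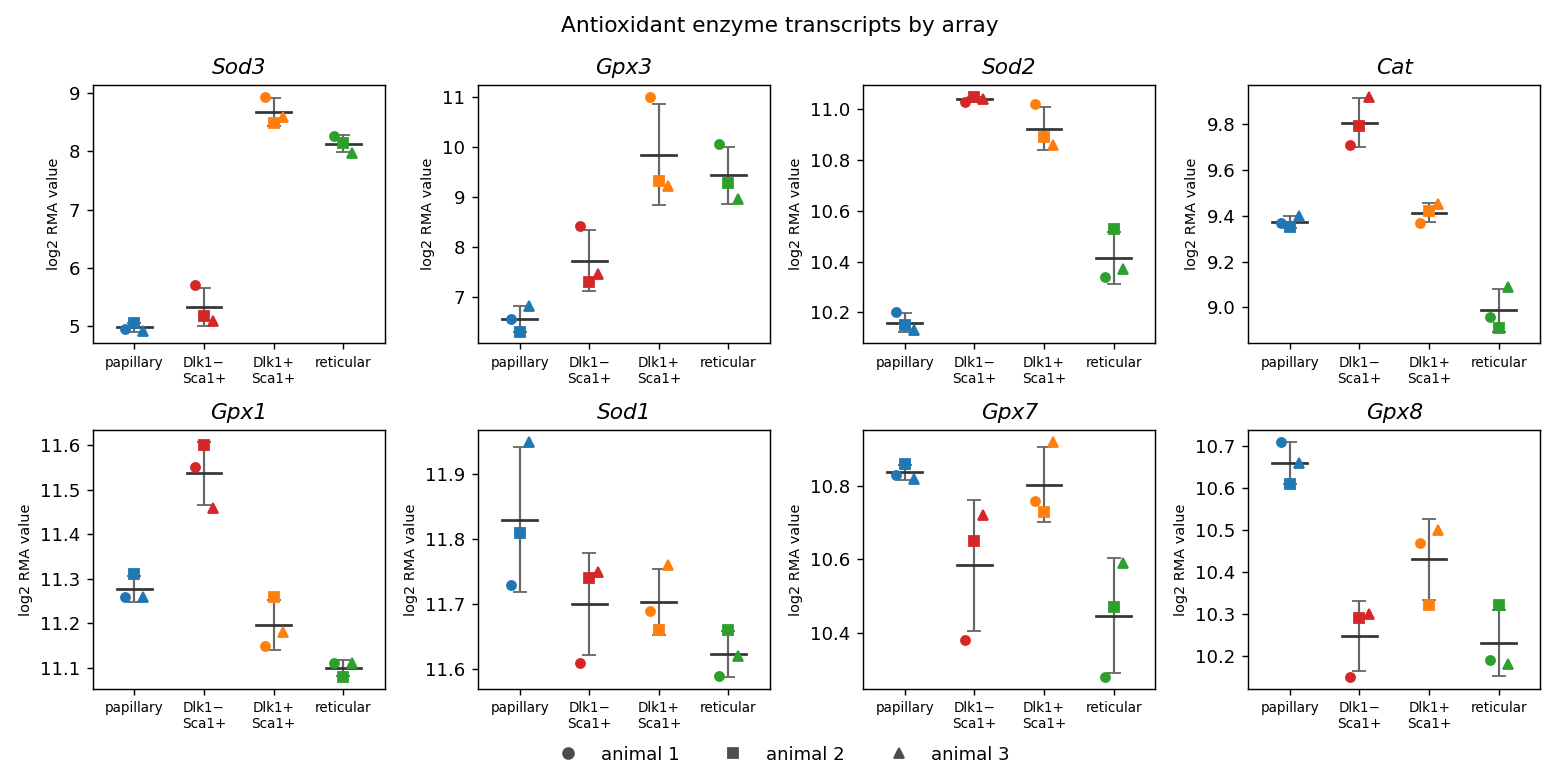
Log2 RMA value of each enzyme transcript by population. Symbols are the 3 animals, horizontal lines are means and bars are the SD (n = 3), and each panel has its own vertical range. Sod3 and Gpx3 were high in the Dlk1+ Sca1+ and reticular arrays, with Sod3 at 7.98 or more there and at 5.70 or less elsewhere, while Sod2, Cat and Gpx1 had their highest means in Dlk1- Sca1+ cells.

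The size of the Sod3 difference depended on the probe set. The used probe set was the brighter one only in Dlk1+ Sca1+ and reticular cells. A second probe set of Sod3 was at 5.47 in papillary, 5.44 in Dlk1- Sca1+, 6.35 in Dlk1+ Sca1+ and 6.06 in reticular cells. It too was higher in every Dlk1+ Sca1+ and reticular array than in any other, with a narrower gap, and its papillary and Dlk1- Sca1+ means hardly differed. Its papillary minus reticular difference was -0.60 ± 0.16, a 1.51-fold lower level (adjusted p = 0.0130 over all probe sets, limma), and its Dlk1- Sca1+ minus Dlk1+ Sca1+ difference was -0.91 ± 0.16. The 4 probe sets of Sod2 gave a closer range, from -0.98 to -0.88 in papillary against Dlk1- Sca1+ cells, and all 4 were called there. The other Cat probe set had differences of the same sign as the used one in all 6 comparisons, and was not called in papillary against reticular cells (0.21 ± 0.12, adjusted p = 0.213).

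**Figure D2:**
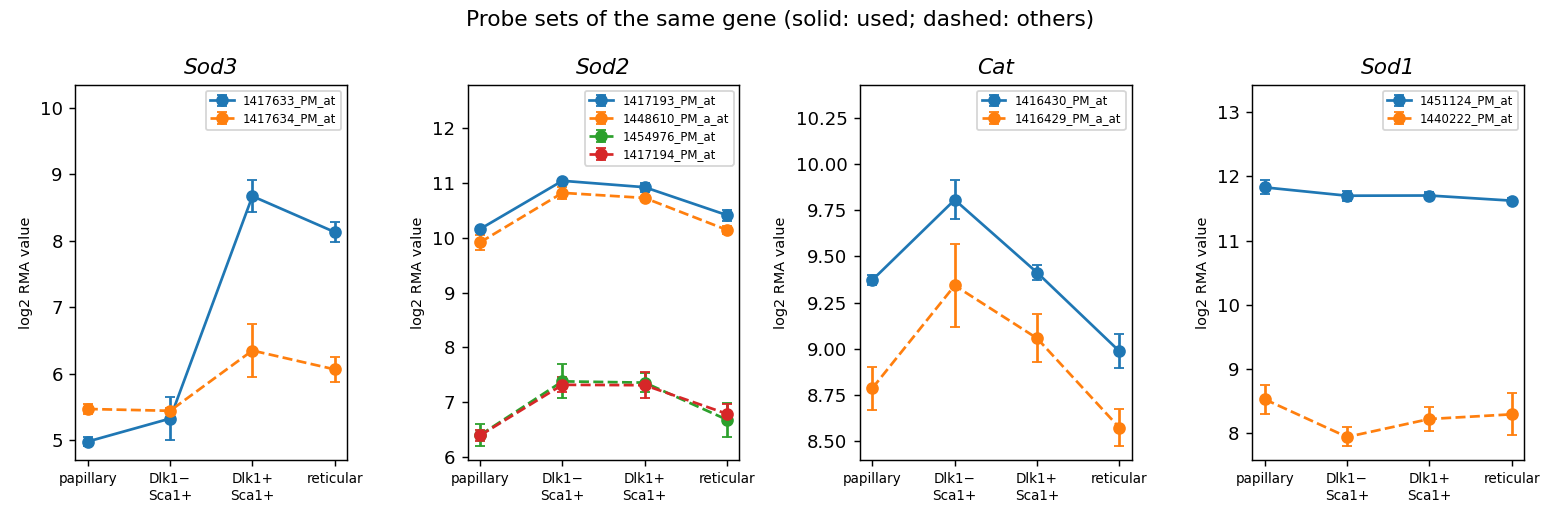
Mean log2 RMA value (bars are the SD, n = 3) of every probe set of Sod3, Sod2, Cat and Sod1 by population. Solid lines are the probe set used for the gene, which is the brightest on average, and dashed lines are the others. The probe sets of Sod2 ran in parallel, while the second Sod3 probe set reached only 6.35 in Dlk1+ Sca1+ cells, where the used one reached 8.67.

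Gpx3, the secreted selenium-dependent peroxidase of plasma and matrix, had the same order of populations as Sod3. It was at 6.55, 6.30 and 6.81 in papillary cells. Dlk1- Sca1+ cells had 8.42, 7.29 and 7.45, against 11.01, 9.32 and 9.22 for Dlk1+ Sca1+ cells. In reticular cells it was at 10.07, 9.28 and 8.96. All Dlk1+ Sca1+ and reticular arrays lay above all others, but the arrays of these populations overlapped each other. The spread between animals was wide, since animal 1 had the highest value in each population but the papillary one.

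Gpx3 was lower in papillary than in reticular cells, with a difference of -2.88 ± 0.44, a 7.38-fold lower level (adjusted p = 0.000245, limma). Against Dlk1+ Sca1+ cells the papillary difference was -3.30 ± 0.44 (adjusted p = 7.13e-05), a 9.83-fold lower level. Against Dlk1- Sca1+ cells it was -1.17 ± 0.44 and was not called (adjusted p = 0.0711), but it was with the animal as a replicate block (adjusted p = 0.00939). It was also called without animal 1 (adjusted p = 0.00930) or the Dlk1+ Sca1+ array of animal 1 (adjusted p = 0.0132). The same held with dim genes left out (adjusted p = 0.0465) or with the arrays of this comparison alone (adjusted p = 0.0176). Dlk1- Sca1+ cells were lower than reticular cells, with a difference of -1.72 ± 0.44 (adjusted p = 0.0154). This call was lost with an intensity trend and robust spread in the model (adjusted p = 0.0595) and in 5 of 15 fits with arrays left out, at adjusted p from 0.0577 to 0.147. Those were the fits without animal 2 or 3, without the Dlk1- Sca1+ array of animal 2 or 3, and without the reticular array of animal 1. Dlk1+ Sca1+ minus reticular was 0.41 ± 0.44 (adjusted p = 0.765), and turned to -0.17 without the Dlk1+ Sca1+ array of animal 1. Over the 12 arrays Gpx3 and Sod3 had r = 0.93, given as a description, since the arrays of a population and of an animal are not independent.

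Markers of other cell types were read beside these values. Of 12 mural cell markers, genes of pericytes and vascular smooth muscle, 9 were measured. Their mean level ran from 6.21 to 6.34 in papillary, 6.62 to 6.83 in Dlk1- Sca1+, 6.81 to 7.46 in Dlk1+ Sca1+ and 7.30 to 8.02 in reticular arrays. In papillary against reticular cells 0 of the 9 were higher and 4 were lower, beside 13.9% and 13.6% of all genes. Single genes of the list differed in pattern. In the Dlk1+ Sca1+ arrays, where Sod3 was at 8.94, 8.48 and 8.59, Rgs5 was at 6.14, 8.98 and 6.10, Kcnj8 at 8.23, 7.75 and 7.88 and Notch3 at 9.23, 9.10 and 8.91. Kcnj8 ran from 4.62 to 4.82 in papillary and 5.40 to 5.69 in Dlk1- Sca1+ arrays, and so separated the populations as Sod3 did. Other genes of the list did not, such as Acta2 and Des. Acta2 averaged 7.43 in papillary, 9.47 in Dlk1- Sca1+, 8.83 in Dlk1+ Sca1+ and 9.26 in reticular cells. Des averaged 6.40, 5.81, 5.88 and 6.09 in the same order. All 12 skeletal muscle markers were measured, and 0 were higher and 6 were lower in papillary than in reticular cells. Their mean level ran from 5.58 to 5.65 in papillary, 5.62 to 5.76 in Dlk1- Sca1+, 5.97 to 6.06 in Dlk1+ Sca1+ and 6.26 to 6.46 in reticular arrays. Acta1 of this list averaged 5.12 in papillary and 8.16 in reticular cells, and Tnnc2 6.02 and 8.71. Myod1 (6.42 and 6.63), Myog (5.09 and 5.23) and Pax7 (5.09 and 4.93) hardly differed. The part of mural cell and skeletal muscle transcripts in the Sod3 and Gpx3 differences was not tested. Of 12 keratinocyte markers 11 were measured, and their mean level was highest in animal 1 in papillary (7.11), Dlk1- Sca1+ (8.84) and reticular (7.28) cells and in animal 2 in Dlk1+ Sca1+ cells (7.38). Gpx3 reached its highest value, 11.01, in the Dlk1+ Sca1+ array of animal 1, where the keratinocyte mean was 7.04. Of 12 Schwann cell and melanocyte markers 10 were measured. Their mean levels in animals 1, 2 and 3 were 5.58, 5.70 and 5.69 in papillary, 7.18, 6.28 and 5.93 in Dlk1- Sca1+, 6.49, 6.09 and 5.92 in Dlk1+ Sca1+ and 5.98, 5.81 and 5.78 in reticular cells, so animal 1 was highest in each population but the papillary one, as for Gpx3. Single genes of this list differed too. In the Dlk1- Sca1+ arrays Dct was at 8.98, 7.22 and 6.67, and S100b at 4.99, 5.03 and 5.11. The part of Schwann cells and melanocytes in the spread of Gpx3 was not tested.

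**Figure D3:**
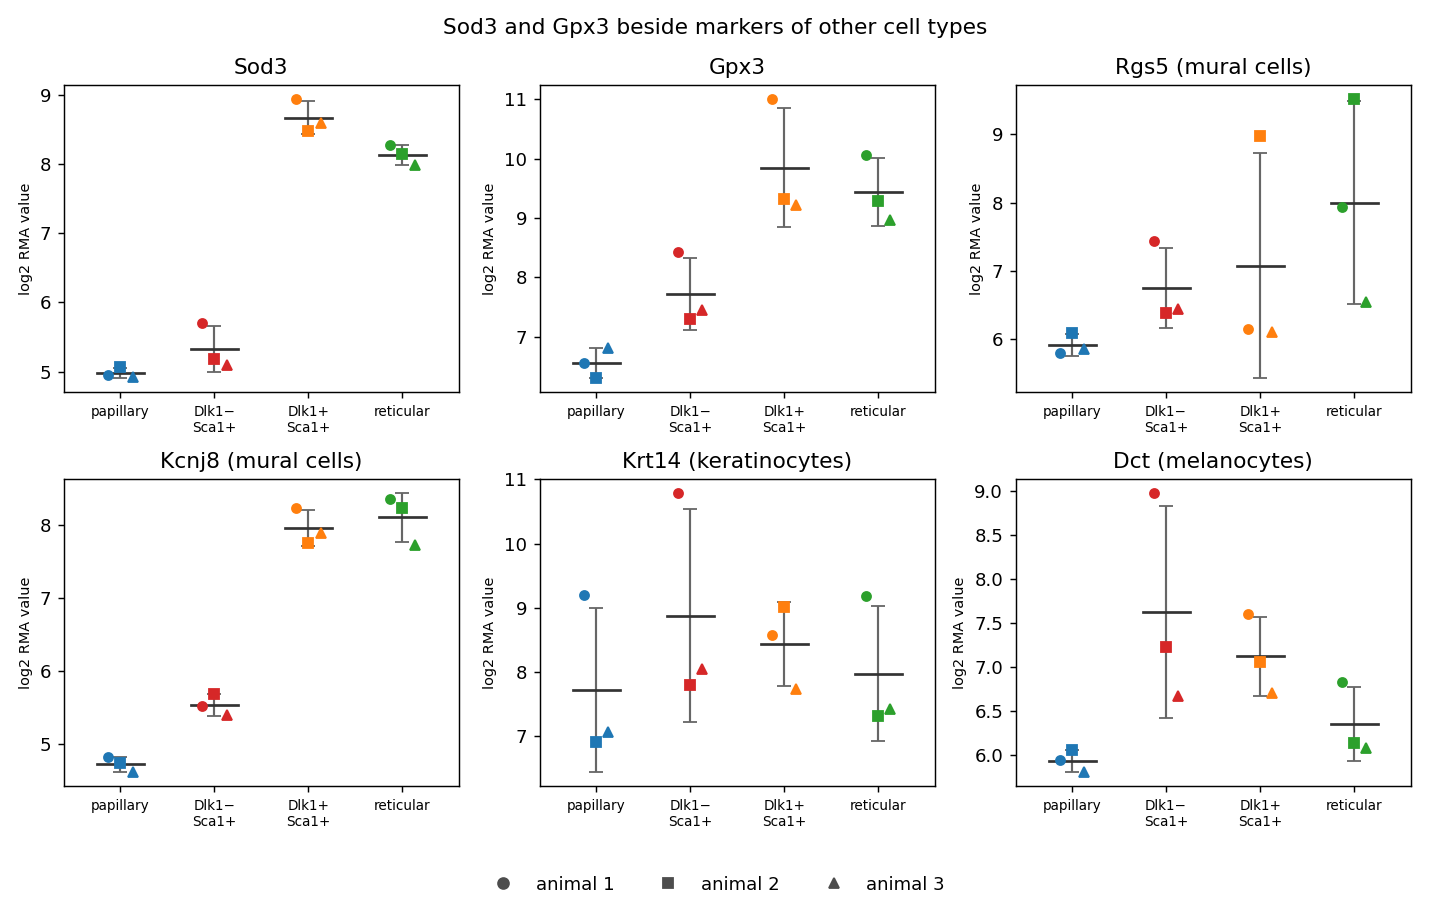
Log2 RMA values of Sod3 and Gpx3 beside the mural cell genes Rgs5 and Kcnj8, the keratinocyte gene Krt14 and the melanocyte gene Dct. Symbols are the 3 animals, lines are means and bars are the SD (n = 3). Kcnj8 was at 7.72 or more in the Dlk1+ Sca1+ and reticular arrays and at 5.69 or less in the others, while Rgs5 reached 8.98 in animal 2 of the Dlk1+ Sca1+ population and Krt14 and Dct 10.79 and 8.98 in animal 1 of the Dlk1- Sca1+ population.

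Sod2, the manganese dismutase of mitochondria, was high in both Sca1+ populations. It was at 10.20, 10.15 and 10.13 in papillary cells and at 11.03, 11.05 and 11.04 in Dlk1- Sca1+ cells. In Dlk1+ Sca1+ cells it was at 11.02, 10.89 and 10.86, against 10.34, 10.53 and 10.37 in reticular cells. The Sca1+ arrays all lay above the reticular arrays, and these above the papillary ones. Papillary cells were lower than Dlk1- Sca1+ cells, with a difference of -0.88 ± 0.07 (1.84-fold, adjusted p = 1.05e-06, limma) and lower than Dlk1+ Sca1+ cells, with a difference of -0.76 ± 0.07 (adjusted p = 3.73e-06). Dlk1- Sca1+ cells were higher than reticular cells by 0.63 ± 0.07 (adjusted p = 5.97e-05), and Dlk1+ Sca1+ cells by 0.51 ± 0.07 (adjusted p = 0.000752). These 4 calls held in each fit with an animal or array left out.

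The papillary minus reticular difference of Sod2 was small, -0.25 ± 0.07 (adjusted p = 0.0203, limma). It was not called with arrays centred on their medians (adjusted p = 0.0810), with the arrays of this comparison alone (adjusted p = 0.0546), or in 5 of 15 fits with arrays left out, at adjusted p from 0.0618 to 0.252. Those were the fits without animal 2 or 3, without the papillary array of animal 2 or 3, and without the reticular array of animal 2. The Sca1+ populations, with means of 11.04 ± 0.01 for Dlk1- Sca1+ and 10.92 ± 0.09 for Dlk1+ Sca1+ cells (SD), differed by 0.12 ± 0.07 (SE), given as a description.

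Catalase, the peroxisomal enzyme, was highest in Dlk1- Sca1+ cells and lowest in reticular cells. It was at 9.37, 9.35 and 9.40 in papillary cells and at 9.71, 9.79 and 9.92 in Dlk1- Sca1+ cells. In Dlk1+ Sca1+ cells it was at 9.37, 9.42 and 9.45, against 8.96, 8.91 and 9.09 in reticular cells. The papillary and Dlk1+ Sca1+ arrays overlapped, and lay between the other populations without overlap with them. Dlk1- Sca1+ cells were higher than reticular cells by 0.82 ± 0.08 (1.77-fold, adjusted p = 8.44e-06, limma), and papillary cells lower than Dlk1- Sca1+ cells, with a difference of -0.43 ± 0.08 (adjusted p = 0.000738). Dlk1+ Sca1+ cells were higher than reticular cells by 0.43 ± 0.08 (adjusted p = 0.00327), and papillary cells by 0.39 ± 0.08 (adjusted p = 0.00168). Without animal 2 these last calls were lost, at adjusted p = 0.111 and 0.0512. Papillary minus Dlk1+ Sca1+ was -0.04 ± 0.08 (adjusted p = 0.796). Between the Sca1+ populations the difference was 0.39 ± 0.08, a description.

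Gpx1, the selenium-dependent peroxidase of the cytosol, was also highest in Dlk1- Sca1+ cells. It was at 11.26, 11.31 and 11.26 in papillary cells and at 11.55, 11.60 and 11.46 in Dlk1- Sca1+ cells. In Dlk1+ Sca1+ cells it was at 11.15, 11.26 and 11.18, against 11.11, 11.08 and 11.11 in reticular cells. All Dlk1- Sca1+ arrays lay above all others. Dlk1- Sca1+ cells were higher than reticular cells by 0.44 ± 0.07 (1.35-fold, adjusted p = 0.000461, limma). Papillary cells were lower than Dlk1- Sca1+ cells, with a difference of -0.26 ± 0.07 (adjusted p = 0.00997), a call lost without animal 1, 2 or 3 (adjusted p from 0.0731 to 0.103). Papillary minus reticular was 0.18 ± 0.07 and was not called (adjusted p = 0.0677), but was with the replicate block (adjusted p = 0.0364). It was also called with arrays centred on their medians (adjusted p = 0.0129) or probe sets averaged (adjusted p = 0.0457). The same held with dim genes left out (adjusted p = 0.0410) or an intensity trend and robust spread (adjusted p = 0.0154). Against Dlk1+ Sca1+ cells the papillary difference was 0.08 ± 0.07 (adjusted p = 0.465), and Dlk1+ Sca1+ minus reticular was 0.10 ± 0.07 (adjusted p = 0.541). Between the Sca1+ populations it was 0.34 ± 0.07, a description.

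Red cells hold much catalase and Gpx1, so their markers were read, and those of fat cells beside them. Of 10 red cell markers 6 were measured, with mean levels from 5.79 to 5.91 in papillary, 5.97 to 6.48 in Dlk1- Sca1+, 6.28 to 6.76 in Dlk1+ Sca1+ and 6.05 to 6.56 in reticular arrays. Between either Sca1+ population and reticular cells limma called 0 of the 6. In papillary cells 1 was lower than in reticular, 1 than in Dlk1- Sca1+ and 2 than in Dlk1+ Sca1+ cells, and 0 were higher in any of these. Of all genes 13.6%, 13.3% and 13.9% were lower in papillary cells in these comparisons, in the same order. Klf1, a regulator of red cell genes, averaged 5.88 in papillary, 7.12 in Dlk1- Sca1+, 7.80 in Dlk1+ Sca1+ and 7.15 in reticular cells. Alas2 averaged 5.83, 5.70, 5.83 and 5.81 in the same order, and Slc4a1, Epb42 and Rhag were about as flat. Hba-a1, a globin gene, was at 7.62, 10.05 and 9.99 in the Dlk1- Sca1+ arrays, in which Cat was at 9.71, 9.79 and 9.92. Of 12 adipocyte markers 9 were measured, and 4 were higher and 0 lower in Dlk1- Sca1+ than in reticular cells, and 0 higher and 4 lower in papillary than in Dlk1- Sca1+ ones. Their mean level ran from 5.64 to 5.94 in papillary, 7.06 to 7.20 in Dlk1- Sca1+, 6.89 to 6.99 in Dlk1+ Sca1+ and 6.44 to 6.55 in reticular arrays. Adipoq, made by mature fat cells, was at 4.30 in papillary, 5.42 in Dlk1- Sca1+, 4.66 in Dlk1+ Sca1+ and 4.57 in reticular cells. Fabp4 and Lpl differed most, with Fabp4 at 5.73, 12.47, 12.28 and 10.08 in that order. Lpl was at 9.11, 12.17, 12.19 and 10.75. Other genes of the list were flat, such as Lep (4.45, 4.54, 4.43 and 4.53) and Pck1 (4.30, 4.25, 4.22 and 4.22). Of the 10 Schwann cell and melanocyte markers 0 were higher and 6 lower in papillary against Dlk1- Sca1+ cells, and 1 was higher in Dlk1- Sca1+ than in reticular cells. Of all genes 13.1% were higher and 13.3% lower in papillary against Dlk1- Sca1+ cells. In Dlk1- Sca1+ against reticular cells 9.36% were higher and 8.8% lower. Dct, a pigment enzyme gene, averaged 5.93 in papillary, 7.62 in Dlk1- Sca1+, 7.12 in Dlk1+ Sca1+ and 6.35 in reticular cells. Pmel averaged 6.28, 7.68, 7.01 and 6.77 in the same order, and Erbb3 5.79, 6.86, 6.39 and 6.05. Sox10, S100b and Foxd3 of this list were nearly flat. Over the 12 arrays they ran from 6.82 to 7.21, 4.83 to 5.27 and 4.51 to 4.78. Whether Schwann cells share in the 6 lower genes was not tested. The part of red cell, adipocyte, Schwann cell and melanocyte transcripts in the Sod2, Cat and Gpx1 differences was not tested.

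Sod1, the copper and zinc dismutase of the cytosol, had the narrowest range of population means of the 8. Its arrays ran from 11.73 to 11.95 in papillary, 11.61 to 11.75 in Dlk1- Sca1+, 11.66 to 11.76 in Dlk1+ Sca1+ and 11.59 to 11.66 in reticular cells. It was called in none of the 5 tested comparisons. The papillary minus reticular difference of 0.21 ± 0.08 had an adjusted p of 0.0624 (limma), and 0.0242 with the replicate block. It was also called without the papillary array of animal 1 (0.26, adjusted p = 0.0433). The same held with arrays centred on their medians (adjusted p = 0.0138) or dim genes left out (adjusted p = 0.0384). An intensity trend and robust spread gave an adjusted p of 0.01135. The other Sod1 probe set had a papillary minus Dlk1- Sca1+ difference of 0.59 ± 0.16 (adjusted p = 0.0169 over all probe sets).

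Gpx7 and Gpx8, peroxidases of the endoplasmic reticulum with a cysteine in place of selenocysteine, had their highest means in papillary cells. For Gpx7 that mean hardly differed from the one of Dlk1+ Sca1+ cells (10.84 against 10.80). Gpx8 was at 10.71, 10.61 and 10.66 in papillary cells and at 10.15, 10.29 and 10.30 in Dlk1- Sca1+ cells. In Dlk1+ Sca1+ cells it was at 10.47, 10.32 and 10.50, against 10.19, 10.32 and 10.18 in reticular cells. All papillary arrays lay above all others, and the highest reticular array equalled the lowest Dlk1+ Sca1+ one. Papillary cells were higher than reticular cells by 0.43 ± 0.08 (1.35-fold, adjusted p = 0.000923, limma) and than Dlk1- Sca1+ cells by 0.41 ± 0.08 (adjusted p = 0.00130). Papillary minus Dlk1+ Sca1+ was 0.23 ± 0.08 (adjusted p = 0.0429). That call was lost with only the 6 arrays of the comparison (adjusted p = 0.0618) and in 11 of 15 fits with an animal or array left out (adjusted p from 0.0505 to 0.208). It held only without the Dlk1- Sca1+ array of animal 1, the Dlk1+ Sca1+ array of animal 3 or the reticular array of animal 1 or 2.

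Gpx7 was at 10.83, 10.86 and 10.82 in papillary cells and at 10.38, 10.65 and 10.72 in Dlk1- Sca1+ cells. In Dlk1+ Sca1+ cells it was at 10.76, 10.73 and 10.92, against 10.28, 10.47 and 10.59 in reticular cells. The papillary arrays lay above those of Dlk1- Sca1+ and reticular cells and overlapped those of Dlk1+ Sca1+ cells. Papillary cells were higher than reticular cells by 0.39 ± 0.10 (adjusted p = 0.0118, limma), a call lost without animal 2 (adjusted p = 0.118) or the reticular array of animal 1 (adjusted p = 0.0505). Papillary minus Dlk1- Sca1+ was 0.25 ± 0.10 (adjusted p = 0.0950, and 0.0304 with the replicate block). It was also called with arrays centred on their medians (adjusted p = 0.0444) or an intensity trend and robust spread (adjusted p = 0.0439). Dlk1+ Sca1+ minus reticular was 0.36 ± 0.10 (adjusted p = 0.0519, and 0.0138 with the block), and was called without the Dlk1- Sca1+ array of animal 1 (adjusted p = 0.0268) or the reticular array of animal 3 (adjusted p = 0.0422). It was also called with arrays centred on their medians (adjusted p = 0.0309) or probe sets averaged (adjusted p = 0.0428). The same held with dim genes left out (adjusted p = 0.0326) or an intensity trend and robust spread (adjusted p = 0.0158). Papillary minus Dlk1+ Sca1+ was 0.03 ± 0.10 (adjusted p = 0.880).

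**Figure D4:**
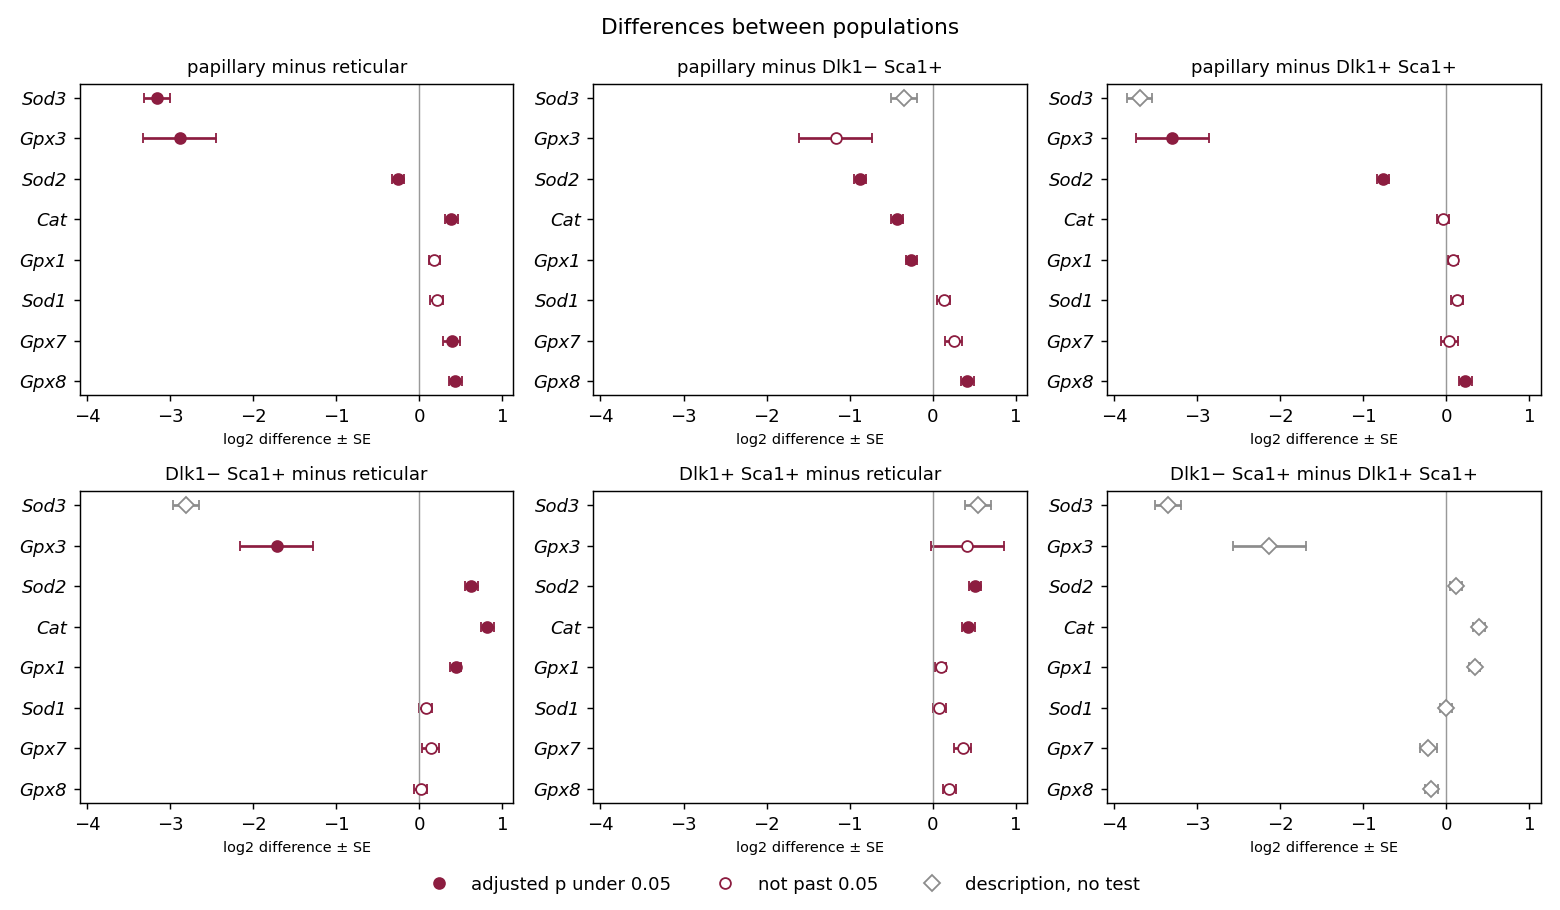
Log2 difference of means with limma's SE for each enzyme in the 6 comparisons. Filled circles were called at an adjusted p under 0.05, open circles were not, and grey diamonds are descriptions with no test. In papillary minus reticular, Sod3 and Gpx3 lay farther from 0 than the other members (-3.15 and -2.88). Both lay farther still in papillary minus Dlk1+ Sca1+ (-3.69 and -3.30). The other 6 stayed within 0.88 of 0 in every comparison.

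Counted together, 6 of the 8 members were called in papillary against reticular cells, 3 higher (Cat, Gpx7 and Gpx8) and 3 lower (Sod2, Sod3 and Gpx3). Of all genes 27.5% were called there, 13.9% higher and 13.6% lower. With the replicate block all 8 were called, and without animal 2 only 3 were. The shares of all genes in this paragraph are those of the main fit alone. Without Sod3, 4 of 7 were called in papillary against Dlk1- Sca1+ cells, 1 higher and 3 lower, against 26.4% of all genes (13.1% higher and 13.3% lower), and 6 with the replicate block, which added Gpx3 and Gpx7. In papillary against Dlk1+ Sca1+ cells 3 of 7 were called, 1 higher and 2 lower, against 28% of all genes (14.1% higher and 13.9% lower). Dlk1- Sca1+ against reticular cells gave calls for 4 of 7 members, 3 higher and 1 lower, against 18.2% of all genes (9.36% higher and 8.8% lower). Dlk1+ Sca1+ against reticular cells gave 2 of 7, Sod2 and Cat, both higher, against 8.43% of all genes (4.06% higher and 4.37% lower), and in 1 without animal 2. These comparisons share populations, so their counts are not independent. With 7 or 8 members chosen after results were known, no share is tested.

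The wider pathway was read from 9 lists with 103 genes, of which 85 were measured. In papillary against reticular cells 14 were higher and 23 lower, with a median difference of -0.03 against -0.01 over all genes. Of all genes 13.9% were called higher there and 13.6% lower, and no list was tested against these shares. Of 18 measured glutathione transferases, which join glutathione to reactive compounds, 2 were higher and 6 lower. Mgst1, a transferase of membranes, was at 6.30 ± 0.26 in papillary, 10.45 ± 0.16 in Dlk1- Sca1+, 10.48 ± 0.12 in Dlk1+ Sca1+ and 9.17 ± 0.06 in reticular cells (SD, n = 3). Its papillary minus reticular difference was -2.87 ± 0.12 (SE, adjusted p = 2.80e-09, limma). Gsto1 (-1.84 ± 0.10) and Gstt3 (-1.61 ± 0.19) were lower as well. The transferases of one class are close relatives, and their probe sets may share signal.

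Regulators and targets of Nrf2, the transcription factor that answers oxidants, were higher in 1 and lower in 5 of 13 measured genes in papillary against reticular cells. Hmox1, which breaks down haem, was at 7.90 ± 0.06 in papillary, 10.96 ± 0.12 in Dlk1- Sca1+, 10.72 ± 0.09 in Dlk1+ Sca1+ and 9.90 ± 0.08 in reticular cells. Its papillary minus reticular difference was -1.99 ± 0.08 (adjusted p = 1.87e-09, limma). The small Maf genes Mafk (-1.09 ± 0.07) and Maff (-1.03 ± 0.12) were lower too, as was Bach1 (-0.67 ± 0.18). Nqo1 was not called (0.02 ± 0.09, adjusted p = 0.907), and Ftl1 was the higher gene (0.26 ± 0.08). Regulators and targets are counted together here, so the count does not measure Nrf2 activity. Of 7 thioredoxin system genes 1 was higher and 2 lower, among them Srxn1, which repairs over-oxidized peroxiredoxins, at -2.30 ± 0.17 (adjusted p = 3.65e-07). Of 4 measured peroxiredoxins 2 were higher and 0 lower, namely Prdx2 (0.29 ± 0.06) and Prdx4 (0.39 ± 0.13), and Prdx4 is an enzyme of the endoplasmic reticulum like Gpx7 and Gpx8.

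Selenium and copper supply concern the member enzymes, since Gpx1 and Gpx3 hold selenocysteine and Sod1 and Sod3 hold copper. A link between supply genes and the members' transcript levels was not tested. Of 9 measured selenium genes 3 were higher and 1 lower in papillary than in reticular cells. The lower one was Selenop, the secreted carrier of selenium, at 8.25 ± 0.23 in papillary, 10.75 ± 0.11 in Dlk1- Sca1+, 10.84 ± 0.15 in Dlk1+ Sca1+ and 10.61 ± 0.07 in reticular cells, with a papillary minus reticular difference of -2.36 ± 0.11 (SE, adjusted p = 8.67e-09, limma). Of 8 measured genes listed for copper supply to the dismutases 1 was higher and 2, Mt1 and Furin, were lower. Furin (-0.56 ± 0.09) is a protease gene and not a copper carrier. Atox1, the chaperone that hands copper to the secretory pathway, was higher by 0.36 ± 0.09 (adjusted p = 0.00565), and the metallothionein gene Mt1 was at -2.73 ± 0.08 (adjusted p = 2.08e-10). Of 11 genes of superoxide and peroxide sources 1 was higher and 5 lower, led by Maob at -1.52 ± 0.22 (adjusted p = 0.000179). Of 11 genes of glutathione synthesis and recycling 2 were higher and 2 lower, and Gpx4, which acts on lipid peroxides, was the 1 called among 4 other peroxidases (0.34 ± 0.07, adjusted p = 0.00294).

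The 85 genes included 7 higher and 32 lower in papillary against Dlk1- Sca1+ cells, and 8 higher and 25 lower against Dlk1+ Sca1+ cells. Of all genes 13.1% were higher and 13.3% lower in the first comparison, and 14.1% and 13.9% in the second. Mgst1 was again far lower, with differences of -4.15 ± 0.12 and -4.18 ± 0.12 (adjusted p = 8.87e-11 and 6.94e-11, limma), and Hmox1 had differences of -3.06 ± 0.08 and -2.82 ± 0.08 (adjusted p = 4.93e-11 and 5.95e-11). Of the 11 genes of glutathione synthesis and recycling 0 were higher and 7 lower against Dlk1- Sca1+ cells, among them both subunits of the enzyme of the limiting step, Gclc (-0.84 ± 0.16) and Gclm (-0.66 ± 0.10). For Prdx4, papillary cells exceeded Dlk1- Sca1+ cells by 1.01 ± 0.13 (adjusted p = 6.85e-05).

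Against reticular cells, Dlk1- Sca1+ cells had 15 of the 85 genes higher and 8 lower (14 called in all without animal 3). Of all genes 9.36% were higher there and 8.8% lower. The peroxisome and mitochondrial enzymes Cat and Sod2 were joined by Gsr, which regenerates glutathione, at 1.02 ± 0.08 (adjusted p = 2.14e-06, limma). Mgst3, a membrane transferase with peroxidase activity, was higher by 2.80 ± 0.12 (adjusted p = 1.40e-08) and was at 9.61 in papillary, 11.22 in Dlk1- Sca1+, 9.74 in Dlk1+ Sca1+ and 8.42 in reticular cells. Prdx4 was lower, with a difference of -0.62 ± 0.13 (adjusted p = 0.00528). Of the 11 superoxide and peroxide sources 0 were higher and 5 lower, including the collagen oxidases Lox (-0.47 ± 0.09) and Loxl1 (-0.52 ± 0.09), which release peroxide outside the cell.

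Dlk1+ Sca1+ cells had 11 of the 85 genes higher and 1 lower than reticular cells, beside 4.06% and 4.37% of all genes. Of 18 glutathione transferases 6 were higher and 0 lower, led by Mgst3 (1.32 ± 0.12, adjusted p = 2.09e-05, limma) and Mgst1 (1.30 ± 0.12, adjusted p = 2.49e-05). Hmox1 was higher by 0.82 ± 0.08 (adjusted p = 3.70e-05). The count of 12 called was 5, 5 and 6 without animals 1, 2 and 3, and 7 without the Dlk1+ Sca1+ array of animal 3. In Dlk1- Sca1+ against Dlk1+ Sca1+ cells 3 of the 85 genes passed as higher and 10 as lower, beside 7.36% of all genes (3.23% higher and 4.13% lower). With the replicate block the 13 became 22, and without animal 1, 2 or 3 they were 8 each time. Since the members were chosen on this comparison, nothing is read from it.

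**Figure D5:**
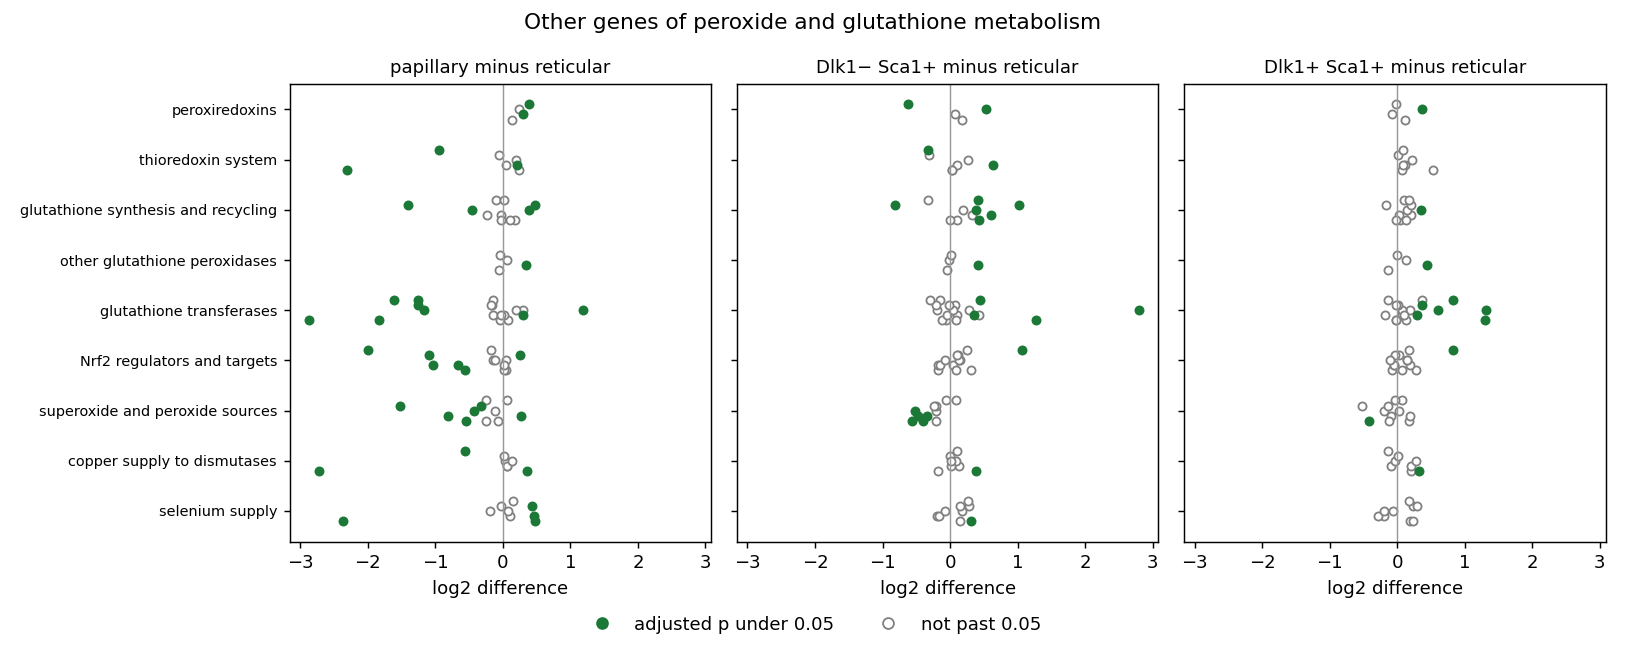
Log2 differences of the 85 measured genes of 9 pathway lists in the 3 comparisons with reticular cells. Each point is a gene, and filled points were called at an adjusted p under 0.05. Most called points lie left of 0 for papillary cells (23 of 37) and right of 0 for Dlk1+ Sca1+ cells (11 of 12). Of all genes 13.9% were called higher and 13.6% lower for papillary cells, and 4.06% and 4.37% for Dlk1+ Sca1+ cells.

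The 5 genes whose levels over the 12 arrays were most like those of Sod3, by Pearson's r among 1615 genes with a range of population means of at least 1, were Fgf7 (r = 0.98), Nrk (0.98), Kcnj8 (0.98), Lifr (0.97) and Aldh1a1 (0.96). Gpx3 ranked the 30th among them. Fgf7, a growth factor for epithelium, was at 6.07 in papillary, 6.72 in Dlk1- Sca1+, 8.56 in Dlk1+ Sca1+ and 8.32 in reticular cells. Kcnj8, a potassium channel gene that is also on the mural cell list, was at 4.73 in papillary, 5.54 in Dlk1- Sca1+, 7.95 in Dlk1+ Sca1+ and 8.10 in reticular cells. Once each population's mean was taken away, the r with Sod3 ran from -0.12 for Nrk to 0.77 for Lifr. The likeness describes the population means of these arrays and carries no test.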

How the data were processed

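RNA of 4500 sorted cells per sample was amplified over 21 cycles and hybridised to Affymetrix arrays, per the labels' protocols. The values deposited by the authors are log2 expression from RMA (affy), as the submitters' processing notes say. Tool versions and the genome build are not given in the sources used here. Such values can understate differences of dim probe sets, and amplification can distort ratios.

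Of 45141 probe sets, 104 were controls, 28898 had 1 symbol in the platform annotation, 551 had several and 15588 were unnamed here. Each gene was read from its brightest probe set on average, with no filter, leaving 17097 genes. The 12 arrays were fitted together (limma 3.58.1 under R 4.3.3), each population having its own mean, with 8 residual and 4.475 prior degrees of freedom. Benjamini-Hochberg adjustment ran over all genes of a comparison. The procedure was tested on simulated data. Alternatives covered scaling, probe sets, dim genes, the spread model and left-out arrays.

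The labels number 3 littermates, and a shared number was read as a shared animal. Their deviations from the population means correlated with a mean r of 0.266 across genes, above 0.1 in 17 of 18 pairs (lowest 0.086). The animal as a block was therefore an alternative fit.

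Members and lists were chosen with earlier results of these data known. Named genes are the members, up to 3 called genes per list and comparison by size of difference, the 5 most like Sod3, its neighbours and the sorting genes. Single marker genes were chosen after their values were seen. In the comparison between the Sca1+ populations no p-value is given, and pathway genes are only counted. The Sca1 transcript was not analysed here.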

Additional observations from a re-analysis of the deposited data

How the results depend on the processing

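The log2 value of an array has no deposited measure of background here, so how far the low Sod3 values lie above it is unknown. Averaging all probe sets of a gene reduced the Sod3 difference, Dlk1- Sca1+ minus Dlk1+ Sca1+, from -3.35 to -2.13, because the second probe set spans a narrower range. Under the replicate block 22 instead of 13 pathway genes passed there, and the other counts stayed within 1.5 times the main ones. With an animal or array left out, that Sod3 difference ran from -3.54 to -3.21. The members called ran from 3 to 7 in papillary against reticular cells, 3 to 5 and 2 to 3 in papillary against Dlk1- Sca1+ and Dlk1+ Sca1+ cells, and 3 to 4 and 1 to 3 in Dlk1- Sca1+ and Dlk1+ Sca1+ against reticular cells. Pathway genes ran from 25 to 37, 26 to 39, 28 to 34, 14 to 25 and 5 to 12 in the same order, and from 8 to 14 between the Sca1+ populations. The cause of the lower counts was not tested, beyond the fewer arrays. The share of all genes called is not given for these other fits. Apart from left-out arrays, 260 of the values of single members under other settings kept their direction and call, 4 lost the call, 22 gained it and 2 turned. The 4 are named with Sod2, Gpx3 and Gpx8 above, and the gains fell on Sod1, Gpx1, Gpx3 and Gpx7.

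Directions turned only for differences that were not called. Sod1 in Dlk1- Sca1+ against reticular cells (0.08) was at -0.14 with probe sets averaged and at -0.35 in the probe set with the smallest p. With arrays left out, Gpx7 in papillary against Dlk1+ Sca1+ cells ran from -0.015 to 0.10, Gpx8 in Dlk1- Sca1+ against reticular cells from -0.035 to 0.065 and Gpx3 in Dlk1+ Sca1+ against reticular cells from -0.167 to 0.73.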

Other observations

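The protein-coding neighbours of Sod3 in the RefSeq annotation were read, with no hypothesis attached. Lgi2, a gene for a secreted leucine-rich protein that lies the second after Sod3, was at 5.42 ± 0.12 in papillary, 5.24 ± 0.25 in Dlk1- Sca1+, 7.02 ± 0.24 in Dlk1+ Sca1+ and 6.88 ± 0.42 in reticular cells (SD, n = 3). It was lower in papillary than in reticular cells, with a difference of -1.46 ± 0.19 (SE, adjusted p = 6.99e-05, limma) and lower in Dlk1- Sca1+ than in reticular cells, with a difference of -1.64 ± 0.19 (adjusted p = 5.73e-05). Ccdc149, which lies between them, was lower in papillary than in reticular cells, with a difference of -0.53 ± 0.10 (adjusted p = 0.00143) and in Dlk1- Sca1+ than in reticular cells, with a difference of -0.47 ± 0.10 (adjusted p = 0.00567). Dhx15, a helicase gene on the other side, was at 8.44 in papillary, 8.99 in Dlk1- Sca1+, 8.84 in Dlk1+ Sca1+ and 8.86 in reticular cells. It was called in papillary against Dlk1- Sca1+ cells (-0.55 ± 0.18, adjusted p = 0.0394), but not in papillary against reticular cells (-0.42 ± 0.18, adjusted p = 0.115, and 0.0171 with the replicate block) or in Dlk1- Sca1+ against reticular cells (0.13 ± 0.18, adjusted p = 0.740).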
